A study of Mus musculus with 23 samples.

Results

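The sites described here are the crosslink sites on mitochondrial RNA in an iCLIP2 study of CTCF, a nuclear zinc-finger protein that organizes chromatin loops. All sites on the mitochondrial chromosome were taken from the 6 deposited site lists, and each was placed on the annotated mouse mitochondrial genes by strand. They numbered 455 of 1348669 sites in all, at 324 distinct positions counted by strand. The WT, ΔZF1 and noXL lists of ESCs held 171, 72 and 53 of them, and those of NPCs 123, 13 and 23. Relative to list length, these were 0.0378% (0.0326 to 0.0440), 0.0310% (0.0246 to 0.0391) and 0.0333% (0.0255 to 0.0435) of the sites in ESCs, with intervals that overlapped, and 0.0513% (0.0430 to 0.0612), 0.0082% (0.00479 to 0.0140) and 0.0214% (0.0143 to 0.0322) in NPCs, where the ΔZF1 interval lay below the others. Both readings depend on weak sites: with a common score minimum of 3.02, ESC WT at 0.0578% (0.0482 to 0.0692) no longer overlapped ESC noXL at 0.0337% (0.0241 to 0.0471), and NPC ΔZF1 at 0.0106% (0.00575 to 0.0195) overlapped NPC noXL at 0.0302% (0.0193 to 0.0472). Sets of 3 values are given below in this order, WT before ΔZF1 before noXL, for each cell type.

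In iCLIP2, UV light links protein to RNA, the protein is immunoprecipitated, and reverse transcription tends to stop at the linked base, so a site is the nucleotide just upstream of a read start. The series used E14 cells, a line of mouse embryonic stem cells (ESCs), kept as such or differentiated over 2 days to neural progenitor cells (NPCs). All 6 groups carried endogenous CTCF tagged with mAID-eGFP and OsTIR1(F74G) at Rosa26, and all received 1 µM 5-Ph-IAA to degrade the endogenous protein together with 1 µg/mL doxycycline for 24 hours to induce a Flag-Halo-tagged rescue CTCF from the Tigre locus. The rescue was wild type in the WT and noXL groups and lacked part of zinc finger 1 in the ΔZF1 groups. Crosslinking of the WT and ΔZF1 groups was with 254 nm UV at 400 mJ/cm2, and the noXL groups went without it. No noXL list came from the ΔZF1 line, and each rescue line was a separate clone (1 for WT and 1 for ΔZF1) of the same degron parent, so effects of the clone cannot be told apart from those of the rescue protein. The labels call the material nuclear RNA. NPC WT pooled 3 libraries and the other groups 4 each.

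One list was made per group from merged libraries, so no value has a replicate error and conditions could not be tested against each other. Ranges in parentheses are 95% Wilson intervals for shares and 95% Newcombe intervals for differences between shares, and they cover counting error only. The number of reads is unknown from the lists, and a longer list can reflect deeper sequencing as well as more crosslinking. A count of 0 allows up to 3 sites, which is 1.75% of the ESC WT mitochondrial sites and 23.1% of those in NPC ΔZF1. As a check of the labels, all 5 stem cell markers examined held more nuclear sites in the ESC lists: Esrrb and Klf4 were at 0 in the 3 NPC lists and Tfcp2l1 at no more than 5, but Nanog kept 14, 7 and 7 sites there and Zfp42 kept 11, 10 and 10. Of 5 progenitor markers, Nes alone held more in the 3 NPC lists (28, 32 and 14, against at most 2 in ESCs). Sox1, Pax6, Zic1 and Hes5 were at 0 in every list but NPC noXL, where Sox1 held 2 and Pax6 held 1, and Zic1 and Hes5 were thus absent from all NPC lists.

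The mouse mitochondrial genome encodes rRNAs for its own ribosome, a set of tRNAs and mRNAs for subunits of the respiratory chain. Both strands are transcribed into long precursors, and the tRNAs that punctuate them are cut out at both ends to release the RNAs between them. The strand with few genes also gives long transcripts antisense to the mRNAs and rRNAs, which are normally degraded quickly. The purine at position 9 of most mitochondrial tRNAs is methylated at N1 by the Trmt10c complex, and such a methyl group is known to stop reverse transcriptase.

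The recurring sites sat at the same few kinds of place, and the sequences below show them with mm10 reference letters from the strand of the RNA, 5′ to 3′, where t stands for uridine. The first set gives the first nucleotides of the 7 tRNAs that held a site at position 9 in 3 or more lists, with that position in capitals.
mt-Tq, chrM:3823-3842, minus strand: taggataaGgtgtttaggta
mt-Ta, chrM:5067-5086, minus strand: gaggtcttAgcttaattaaa
mt-Tc, chrM:5238-5257, minus strand: ggtcttaaGgtgatattcat
mt-Tp, chrM:15403-15422, minus strand: caagaagtAgtttaattaga
mt-Tr, chrM:9808-9827, plus strand: tggtaattAgtttaaaaaaa
mt-Tl2, chrM:11671-11690, plus strand: acttttatAggataatagta
mt-Tt, chrM:15289-15308, plus strand: gtcttgatAgtataaacatt

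The second set shows the inside of 5 tRNAs, with the positions called in both WT lists in capitals. It covers nucleotides 12 to 40 of each tRNA, or 5 to 33 for mt-Ts2.
mt-Ta, chrM:5047-5075, minus strand: ttaATtaaagcaattgatTTgcattcaat
mt-Tc, chrM:5218-5246, minus strand: gatAttcatgtcgaatTGCaaattcgaag
mt-Tp, chrM:15383-15411, minus strand: ttaattagaataccagctTtgGGtgctgg
mt-Tl2, chrM:11682-11710, plus strand: ataatagtaatccattggtctTagGaacc
mt-Ts2, chrM:11617-11645, plus strand: aagattgcaagaacTgCtaattcatgctt

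The third set gives mRNA positions called in both WT lists and in no noXL list, again in capitals, with the control-region position that all 6 lists held as the last line. It shows 6 of 8 such mRNA positions, without nucleotide 179 of mt-Nd6 and the last nucleotide of mt-Cytb.
mt-Nd4 around nucleotide 1233, chrM:11387-11411, plus strand: aatatacataatTattaccacccaa
mt-Nd5 around nucleotide 421, chrM:12150-12174, plus strand: atatttcaacttTtcattggctgag
mt-Nd5 around nucleotides 1095 and 1097, chrM:12824-12848, plus strand: catcacaaaaatCaTaccattcaca
mt-Nd5 around nucleotide 1197, chrM:12926-12950, plus strand: tattgaagcaatTaatacctgcaac
mt-Nd5 around nucleotide 1456, chrM:13185-13209, plus strand: ataccatgatttTtaaaaaccacag
control region, chrM:16177-16201, minus strand: ttgggaactactAgaattgatcagg

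Long stretches of the genome held no site, and they limit every gene count that follows. On the plus strand, which carries most genes, ESC WT, ESC ΔZF1 and NPC ΔZF1 had no site from position 1 to 9815, NPC WT none from 1 to 9398 and ESC noXL none from 1 to 11611. NPC noXL stood apart, because its 8 plus-strand sites all lay between 68 and 5324, where no other list had one. On the minus strand, no list had a site between 6477 and 11062. Of the positions in that minus-strand stretch, 97.6% started a 50-nt read with an exact nuclear copy, against 11.5% of positions outside it. For the plus-strand stretch that ESC WT left empty, the figures were 41.7% inside and 26.6% outside. The part that nuclear copies have in these gaps was not tested, and read coverage was not analysed here, so a stretch without reads cannot be told apart from one with reads but no called site.

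Mitochondrial sites ranged widely in PureCLIP score, the caller's log score for a site, which is not scaled to depth and has a ceiling of 708. Most scored low in the longer lists: 108 of 171, 40 of 72 and 34 of 53 were at 20 or less in ESCs, and 76 of 123, 6 of 13 and 8 of 23 in NPCs. Their medians were 7.70, 9.73 and 7.72 in ESCs and 9.28, 39.6 and 55.7 in NPCs, above the nuclear medians of the same lists, which lay between 2.41 and 4.43. A score over 100 was held by 25.1%, 34.7% and 24.5% of mitochondrial sites in the WT, ΔZF1 and noXL lists of ESCs and by 21.1%, 23.1% and 39.1% in those of NPCs. Among nuclear sites of the same lists, the share lay between 0.303% and 0.596%. Within the mitochondrial sites, ESC WT minus ESC noXL was 0.618 percentage points (-13.7 to 12.5) and NPC WT minus NPC noXL was -18.0 points (-39.0 to 0.786), so both intervals included 0. The NPC noXL median and share over 100 rest in part on its plus-strand sites. Of its 9 sites over 100, 5 were at the ceiling, and all 5 lay in the plus-strand stretch where no other list had a site.

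Antisense sites formed the largest class in the ESC lists and in NPC WT, tRNA sites had higher median scores than antisense sites in every list, and neither rRNA had a sense site in any list. Antisense sites numbered 99, 40 and 36 in the WT, ΔZF1 and noXL lists of ESCs and 66, 4 and 9 in those of NPCs. Antisense positions are also the largest class by length, at 47.1% of the nucleotides of the 2 strands. The site shares were 57.9% (50.4 to 65.0), 55.6% (44.1 to 66.5) and 67.9% (54.5 to 78.9) in ESCs. In NPCs they were 53.7% (44.9 to 62.2), 30.8% (12.7 to 57.6) and 39.1% (22.2 to 59.2). Only the ESC WT and ESC noXL intervals left out 47.1%. The median score of antisense sites lay between 2.66 and 8.51 over the 6 lists. The tRNAs held 31, 22 and 12 sites in ESCs, with median scores of 436, 239 and 131, and 29, 5 and 10 in NPCs, with median scores of 166, 57.1 and 96.0. They cover 4.59% of the nucleotides of the 2 strands and held 18.1% of the ESC WT sites. The mRNAs held 18, 1 and 0 sites in ESCs and 16, 0 and 0 in NPCs. The control region, which holds the promoters and the replication origin of the heavy strand, had 19, 5 and 3 in ESCs and 8, 3 and 1 in NPCs. The short spacers between genes held few sites, 4, 4 and 2 in ESCs and 4, 1 and 3 in NPCs, but had higher median scores than the tRNAs in all 6 lists, at 636, 298 and 361 in ESCs and 316, 68.6 and 653 in NPCs.

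**Figure D1:**
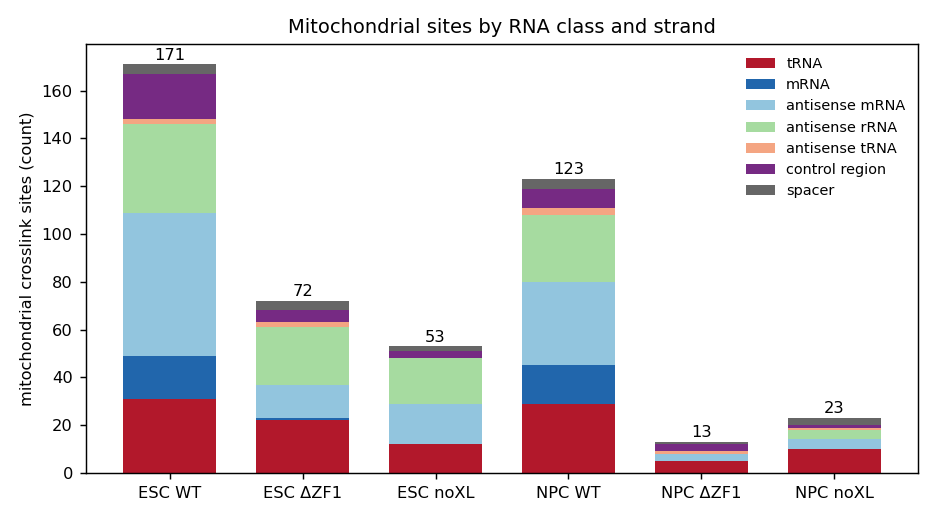
Stacked counts of mitochondrial crosslink sites (y axis) in the 6 pooled site lists (x axis), coloured by the RNA class and strand of the site, with the total above each bar. Sense mRNA sites are visible in ESC WT (18) and NPC WT (16), tRNA and antisense sites appear in every list, and no list has a sense rRNA site.

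Sense mRNA sites made up more of the WT list than of the noXL list in ESCs. Their share of the mitochondrial sites was 10.5 points higher in ESC WT than in ESC noXL (2.79 to 16.0) and 9.14 points higher than in ESC ΔZF1 (2.00 to 14.8). In NPCs the differences were 13 points against noXL (-2.10 to 20.1) and 13 points against ΔZF1 (-10.3 to 20.1), so both intervals included 0. ESC WT and NPC WT differed by -2.48 points (-10.5 to 4.84). The tRNA share ran the other way, with ESC WT minus ESC ΔZF1 at -12.4 points (-24.9 to -1.0) and NPC WT minus NPC noXL at -19.9 points (-40.7 to -0.251). The NPC noXL share rests in part on plus-strand tRNAs, which held 5 of its 10 tRNA sites. These 5 lay in the stretch where no other list had a site. For ESC WT minus ESC noXL the tRNA difference was -4.51 points (-18.4 to 6.71), and for NPC WT minus NPC ΔZF1 it was -14.9 points (-41.7 to 7.44).

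Among the 22 tRNAs, 16 held a sense site in at least 1 list. Of these, mt-Tf, mt-Tv, mt-Tl1, mt-Ti and mt-Tw had their only sense site in NPC noXL, without UV. The largest totals over the 6 lists, 16 sites each, belonged to mt-Ta (tRNA for alanine), mt-Tc (cysteine) and mt-Tp (proline), followed by mt-Tl2 (a leucine tRNA) with 14, mt-Tt (threonine) with 10 and mt-Tr (arginine) with 9. mt-Ta and mt-Tc each held 5, 4 and 1 sites in ESCs and 5, 0 and 1 in NPCs, so both WT lists were highest, at 72.5 sites per kb for mt-Ta and 75.8 for mt-Tc. mt-Tp was the only one of these 3 with sites in all 6 lists, at 4, 3 and 2 in ESCs and 4, 2 and 1 in NPCs. mt-Tl2 held 3, 2 and 3 in ESCs and 5, 1 and 0 in NPCs. mt-Tt held 3, 3 and 2 against 2, 0 and 0, and mt-Tr 3, 2 and 0 against 2, 2 and 0.

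The remaining tRNAs with 5 or more sites were mt-Ts2 (a serine tRNA), with 4, 1 and 0 in ESCs and 2, 0 and 0 in NPCs, mt-Tq (glutamine), with 2, 1 and 1 against 1, 0 and 1, and mt-Te (glutamate), with 1 in every list but NPC ΔZF1. No sense site lay in 6 tRNAs. Of these, mt-Tn, which sits between mt-Ta and mt-Tc on the same strand, had a nuclear copy for 97.2% of its positions, and mt-Ty, mt-Ts1, mt-Td and mt-Tk had one for 100%, whereas mt-Tm had 0%. The corresponding figures were 18.8% for mt-Ta, 4.55% for mt-Tc and 0% for mt-Tp, while mt-Tr held sites with copies for 82.4% of its positions.

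Position 9 was the most frequent place within the tRNAs in every list but NPC ΔZF1, where positions 9, 10, 33, 34 and 36 held 1 site each. Position 9 held 8 of 31, 6 of 22 and 5 of 12 tRNA sites in the WT, ΔZF1 and noXL lists of ESCs, and 8 of 29, 1 of 5 and 4 of 10 in those of NPCs. These are 20.0% to 41.7% of the tRNA sites on 1.47% of the tRNA nucleotides. Position 9 is a purine in 19 of the 22 tRNAs, and 10 tRNAs had a site there in at least 1 list. This place, and the nucleotide before a gene start described further on, were singled out after the positions had been seen.

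mt-Tq, mt-Ta and mt-Tc held a position 9 site in every list but NPC ΔZF1. The mt-Ta score was 708, 495 and 155 in ESCs, and in NPCs 266 with WT and 70.9 without UV. For mt-Tq the values were 550, 278 and 186 in ESCs and 271 and 118 in NPCs. For mt-Tc they were 678, 335 and 142 in ESCs and 214 and 37.2 in NPCs. In all 3 tRNAs ESC WT was highest and NPC noXL lowest, but the scores were not scaled to depth.

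mt-Tp held position 9 in 4 lists, with scores of 708, 687 and 109 in ESCs and 708 in NPC WT. mt-Tl2 held it at 444 in ESC WT, 40.0 in ESC noXL and 9.50 in NPC WT. These are again places with a call in the absence of UV. mt-Tr and mt-Tt were called at position 9 in UV lists and in neither noXL list: mt-Tr scored 42.1 with WT and 19.7 with ΔZF1 in ESCs, and 35.5 and 57.1 in NPCs. mt-Tt scored 299 and 67.3 with them in ESCs and 152 with WT in NPCs. The other 3 tRNAs with a position 9 site had 1 each, mt-Ti (isoleucine) in NPC noXL at 55.7, mt-Tg (glycine) in NPC WT at 4.49 and mt-Ts2 in ESC WT at 72.7. mt-Ts2 was the only one of the 10 with a uridine there.

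**Figure D2:**
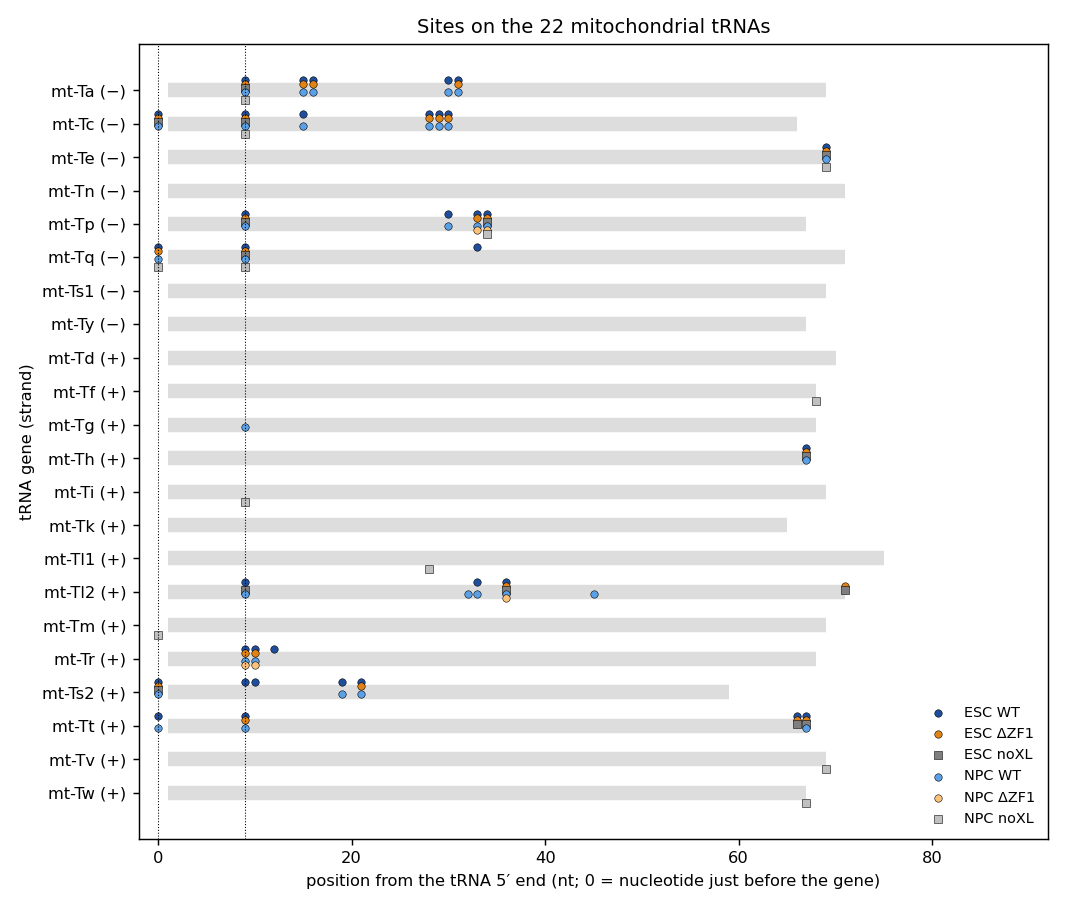
Sites on the 22 mitochondrial tRNAs, with the position from the tRNA 5′ end in nt on the x axis, 1 tRNA per row (strand in parentheses), grey bars for the length of each gene, and 1 marker per site and list, circles for UV lists and squares for noXL lists. Position 0 is the nucleotide just before the gene, dotted lines mark positions 0 and 9, and the positions between 12 and 33 hold circles but only 1 square, in mt-Tl1.

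Away from position 9, positions 15 to 21 and 28 to 36 held more sites in the WT lists than in the shorter noXL lists. These windows, too, were chosen after the positions had been seen. Near the 3′ end, position 67 held 2, 2 and 2 sites in ESCs and 2, 0 and 1 in NPCs. All tRNA positions but position 9 and gene starts held 12.3%, 18.1% and 7.55% of the mitochondrial sites in ESCs. In NPCs they held 15.4%, 30.8% and 17.4%, so NPC WT was not above NPC noXL. Positions 15 to 21 held 5, 3 and 0 sites in ESCs and 5, 0 and 0 in NPCs. Positions 28 to 36, which lie around the anticodon loop of most of these tRNAs, held 11, 7 and 2 in ESCs and 11, 3 and 2 in NPCs. In mt-Ta, the uridine at nucleotide 16 scored 708 with WT and 579 with ΔZF1 in ESCs and 166 with WT in NPCs, and the uridine at nucleotide 31 scored 708, 283 and 277. The adenine at nucleotide 15 scored 640, 214 and 230 in the same lists. None of these 3 positions was called in NPC ΔZF1 or in a noXL list.

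mt-Tc showed the same division. Its nucleotides 28, 29 and 30 were each called in ESC WT, ESC ΔZF1 and NPC WT alone, with scores of 708, 106 and 282 at the uridine at nucleotide 28. Nucleotide 30, a cytosine, scored 464, 412 and 286. In mt-Tp, by contrast, the guanine at nucleotide 34 was 1 of the 2 positions held by all 6 lists, at 708, 708 and 222 in ESCs and 708, 470 and 268 in NPCs. Its neighbour at nucleotide 33 was called at 708 and 140 with WT and ΔZF1 in ESCs, at 708 and 39.6 in NPCs, and in neither noXL list. mt-Tl2 nucleotide 36, a guanine, was called in 5 lists, at 708, 486 and 156 in ESCs and 436 and 519 in NPCs, with none in NPC noXL. Its uridine at nucleotide 33 was called in the WT lists alone, at 336 in ESC WT and 263 in NPC WT. In mt-Ts2 the uridine at nucleotide 19 was likewise called at 473 and 146 in the WT lists alone.

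Sites on the nucleotide just before an annotated gene start, where the read begins with the first base of the gene, were found for 10 of the 37 genes. There were 6, 6 and 5 in ESCs and 6, 1 and 5 in NPCs. The one before mt-Cytb, which encodes the cytochrome b subunit of complex III, scored 708 in all 3 ESC lists, 578 in NPC WT and 68.6 in NPC ΔZF1, so UV and noXL lists of ESCs both reached the ceiling. At the start of mt-Nd6, the complex I subunit gene of the minus strand, whose preceding nucleotide is the last one of mt-Te, the scores were 132, 126 and 113 in ESCs, and 13.9 with WT and 27.5 without UV in NPCs. Before mt-Ts2, where the preceding nucleotide is the last of mt-Th, they were 371, 263, 111 and 70.5 in the ESC lists and NPC WT.

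Before mt-Tc the scores were 653, 86.3, 12.6 and 4.35 in those same 4 lists, and before mt-Tq they were 618 with WT and 351 with ΔZF1 in ESCs, and 336 with WT and 9.95 without UV in NPCs. The nucleotide before mt-Nd5 was called in ESC ΔZF1 at 114 and in ESC noXL at 119, and that before mt-Tt in ESC WT at 27.0 and NPC WT at 23.4. The starts of both rRNAs were called in NPC noXL alone, at 708 before mt-Rnr1 and 708 before mt-Rnr2, as was that of mt-Tm at 653. In NPC noXL, therefore, 3 of the 5 start sites lay in the plus-strand stretch where no other list had a site.

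Taken as 1 set, position 9 of the tRNAs and the nucleotides before gene starts make up 0.181% of the nucleotides of the 2 strands. In ESCs they held 8.19% of mitochondrial sites with WT (4.94 to 13.3), 16.7% with ΔZF1 (9.80 to 26.9) and 18.9% without UV (10.6 to 31.4). For the NPC lists the corresponding values were 11.4% (6.90 to 18.2), 15.4% (4.33 to 42.2) and 39.1% (22.2 to 59.2). ESC WT minus ESC noXL was -10.7 points (-23.6 to -0.962), and NPC WT minus NPC noXL was -27.7 points (-48.3 to -9.46). The places were chosen from these lists, so the differences are a description.

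**Figure D3:**
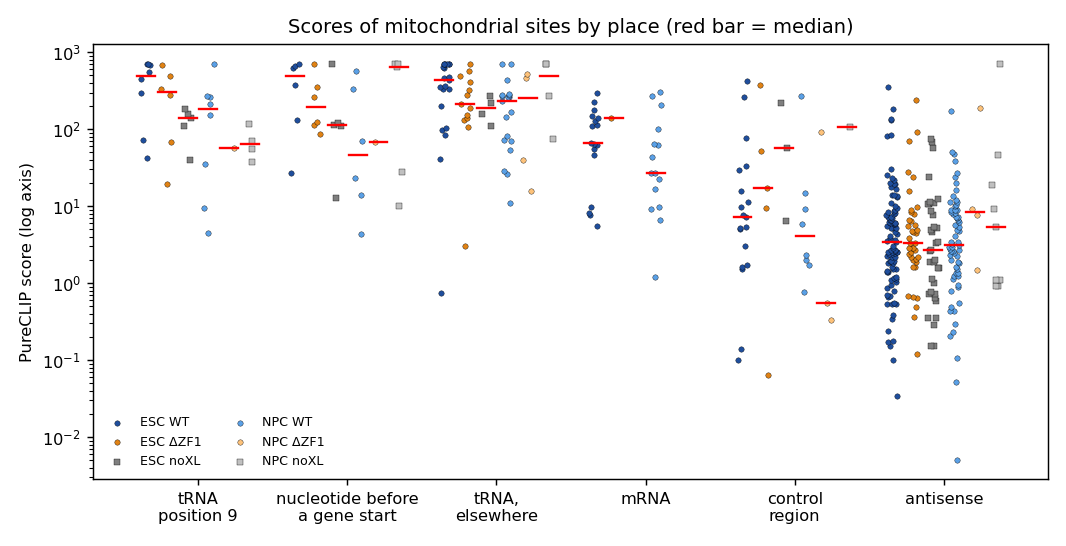
PureCLIP score of every mitochondrial site on a log axis (y), by place (x) and list (colour; circles for UV lists, squares for noXL lists), with red bars for medians. Sites at tRNA position 9, before gene starts and elsewhere in tRNAs reach the ceiling of 708, mRNA sites are present in WT lists and once in ESC ΔZF1, and antisense sites have medians between 2.66 and 8.51; spacer sites away from gene starts and scores of sense rRNA sites (none) are not drawn.

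Sense mRNA sites lay in 5 of the 13 mRNAs. mt-Nd5, at chrM:11742-13565 on the plus strand, encodes a membrane-arm subunit of complex I and held the most, with 7, 1 and 0 in ESCs and 9, 0 and 0 in NPCs. mt-Cytb held 3, 0 and 0 in ESCs and 4, 0 and 0 in NPCs. The complex I genes mt-Nd4 and mt-Nd6 each held 4, 0 and 0 against 1, 0 and 0, and mt-Nd3, another of complex I, held 1, in NPC WT. None of the 5 had a sense site in a noXL list or in NPC ΔZF1. Per kb, the 7 complex I mRNAs together held 2.36 sites with WT in ESCs and 1.89 with WT in NPCs, and the single complex III mRNA 2.62 and 3.50. The 3 complex IV mRNAs (mt-Co1, mt-Co2 and mt-Co3) and the 2 complex V mRNAs (mt-Atp6 and mt-Atp8) held 0 in all lists, as did mt-Nd1, mt-Nd2 and mt-Nd4l. All of these but mt-Nd4l lie in the plus-strand stretch that both WT lists left empty, and mt-Nd4l had a nuclear copy for 100% of its positions.

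The only mRNA position held by 3 lists was the uridine at nucleotide 1097 of mt-Nd5, at position 12838, which scored 296 with WT and 142 with ΔZF1 in ESCs and 271 with WT in NPCs. The uridine at nucleotide 421 scored 226 in ESC WT against 204 in NPC WT, while that at nucleotide 1197 scored 112 and 16.9. In mt-Nd4, the uridine at nucleotide 1233 scored 141 in ESC WT and 27.3 in NPC WT. mt-Nd6 had 4 neighbouring uridines in ESC WT, at nucleotides 174, 175, 178 and 179, with scores of 7.68, 109, 63.3 and 66.0, of which NPC WT held the last at 9.28. In mt-Cytb no position but the last one, nucleotide 1144, was called in both WT lists. The highest there were nucleotide 1041 in ESC WT at 178 and nucleotide 561 in NPC WT at 307.

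The base under the site separated the classes. For reference, uridine lay under 59.9%, 48.6% and 28.3% of the nuclear sites of the same lists in ESCs and under 63.9%, 58.5% and 27.9% in NPCs, so the WT lists exceeded the noXL lists among nuclear sites too. Over all mitochondrial sites the shares were 50.3%, 30.6% and 32.1% in ESCs and 50.4%, 30.8% and 21.7% in NPCs, and WT exceeded noXL by 18.2 points in ESCs (2.90 to 31.5) and by 28.7 points in NPCs (6.70 to 43.5). On mRNA, 16 of 18 sites in ESC WT (88.9%, 67.2 to 96.9) and 15 of 16 in NPC WT (93.8%, 71.7 to 98.9) lay on uridine, against 30.1% of the nucleotides of the mRNAs. On tRNA, 11 of 31, 3 of 22 and 0 of 12 did so in ESCs and 8 of 29, 0 of 5 and 0 of 10 in NPCs, with 31.6% of the nucleotides being uridine. The mRNA share exceeded the tRNA share by 53.4 points in ESC WT (25.5 to 69.9) and by 66.2 points in NPC WT (37.6 to 80). The tRNA sites include position 9, which is mostly a purine. With position 9 and gene starts left out, 10 of 21 tRNA sites in ESC WT lay on uridine (47.6%, 28.3 to 67.6). In NPC WT 8 of 19 did (42.1%, 23.1 to 63.7), against 32.1% of those nucleotides. For tRNA sites, ESC WT exceeded ESC noXL by 35.5 points (7.30 to 53.1) and ESC ΔZF1 by 21.8 points (-2.53 to 41.5). NPC WT exceeded NPC noXL by 27.6 points (-3.01 to 45.7), an interval that included 0.

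High-scoring sites differed in base between WT and noXL in ESCs. Of the mitochondrial sites with a score over 100, 21 of 43 lay on uridine with WT, 6 of 25 with ΔZF1 and 0 of 13 without UV. ESC WT exceeded ESC noXL by 48.8 points (22 to 63.2) and ESC ΔZF1 by 24.8 points (0.760 to 43.9), while ESC ΔZF1 exceeded ESC noXL by 24.0 points (-2.01 to 43.4). In NPCs the counts were 11 of 26 in WT, 1 of 3 in ΔZF1 and 1 of 9 in noXL, and WT exceeded noXL by 31.2 points (-5.27 to 52.0). Of the 13 high-scoring ESC noXL sites, 8 lay at tRNA position 9 or before a gene start. With those places left out, and over all scores, the uridine share of ESC WT exceeded that of ESC noXL by 13.3 points (-3.47 to 28.6), and that of NPC WT exceeded that of NPC noXL by 33.6 points (5.84 to 50.1). Within ESC noXL, 16 of the 34 sites with a score of 20 or less lay on uridine, so the absence of uridine belonged to its high-scoring sites, with a difference of -47.1 points (-63.3 to -19.4). In ESC WT the difference between high and low scores was -1.16 points (-18.1 to 16.0).

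**Figure D4:**
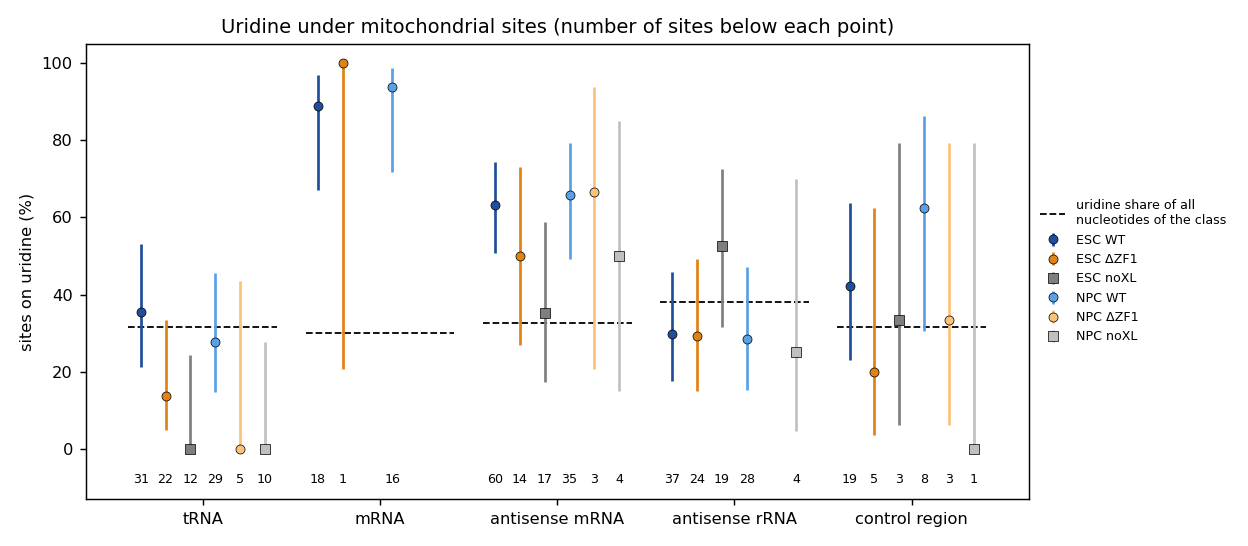
Share of sites on uridine in percent (y axis) by class of site (x axis) and list (colour; circles for UV lists, squares for noXL lists), with 95% Wilson intervals as bars, the number of sites under each point, and dashed lines for the uridine share of all nucleotides of the class. The mRNA points of ESC WT (88.9%) and NPC WT (93.8%) lie far above their dashed line, while the noXL tRNA points lie at 0%.

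Antisense sites were minus-strand sites opposite mRNAs and rRNAs for the most part, and they differed by what lay opposite. Opposite the mRNAs, 38 of 60 sites in ESC WT (63.3%) and 23 of 35 in NPC WT (65.7%) lay on uridine, against 32.6% of the nucleotides and near the share given above for nuclear sites of the same lists. Opposite the rRNAs, 11 of 37 (29.7%) and 8 of 28 (28.6%) did, against 38.1%. The difference was 33.6 points in ESC WT (13.2 to 50.1) and 37.1 points in NPC WT (12.3 to 56.1). In ESC noXL it was -17.3 points (-44.3 to 14.1), with 6 of 17 sites opposite mRNAs and 10 of 19 opposite rRNAs. Opposite the mRNAs, ESC WT exceeded ESC noXL by 28.0 points (1.43 to 49.1), and NPC WT exceeded NPC noXL, with 4 sites, by 15.7 points (-23.0 to 53.2). Opposite the rRNAs, ESC WT minus ESC noXL was -22.9 points (-46.4 to 3.47) and NPC WT minus NPC noXL was 3.57 points (-43.3 to 31.1).

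The antisense RNA with most sites was that opposite mt-Rnr2, the large rRNA, with 21, 16 and 11 sites in ESCs and 17, 0 and 3 in NPCs. Opposite mt-Rnr1, the small rRNA, there were 16, 8 and 8 in ESCs and 11, 0 and 1 in NPCs. Per kb these were 13.3 and 16.8 in ESC WT. Among the mRNAs, the counts opposite mt-Nd1, a complex I gene, were 13, 5 and 6 in ESCs and 7, 0 and 1 in NPCs, and those opposite mt-Co1, the catalytic subunit gene of complex IV, were 9, 4 and 6 against 3, 0 and 1. Opposite mt-Nd2, of complex I, they were 10, 1 and 1 against 6, 0 and 1, opposite mt-Nd5 14, 2 and 2 against 11, 1 and 1, and opposite mt-Cytb 12, 2 and 2 against 6, 2 and 0. The last 3 genes had 10 or more antisense sites in ESC WT and at most 2 in the ΔZF1 and noXL lists of ESCs, which are also shorter.

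Few antisense positions recurred. Of the 36 positions held by 3 or more lists, 8 were antisense, 22 lay in tRNAs, 4 in spacers, 1 in an mRNA and 1 in the control region. The antisense position with most lists lay opposite nucleotide 15 of mt-Nd5, with scores of 82.4, 70.9 and 57.8 in ESCs, and 4.84 with WT and 45.6 without UV in NPCs. Opposite nucleotide 52 of mt-Tp, a plus-strand uridine scored 349 with WT and 236 with ΔZF1 in ESCs and 174 and 190 in NPCs, with none in a noXL list. In the control region, the adenine at position 16189 on the minus strand was the other position held by all 6 lists, at 429, 375 and 217 in ESCs and 269, 93.3 and 107 in NPCs.

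The positions at the ceiling of the score numbered 14, of which 11 lay in tRNAs and 3 just before a gene start, 1 of these being the last nucleotide of mt-Tv; the remaining position lay opposite mt-Ty, in NPC noXL. Beside those already named, they included the last nucleotide of mt-Tf and nucleotide 28 of mt-Tl1, both in NPC noXL alone. The last 2 nucleotides of mt-Tt also recurred. Nucleotide 67 scored 365, 326 and 274 in ESCs and 72.5 in NPC WT, and nucleotide 66 scored 335, 187 and 111 in the 3 ESC lists.

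**Figure D5:**
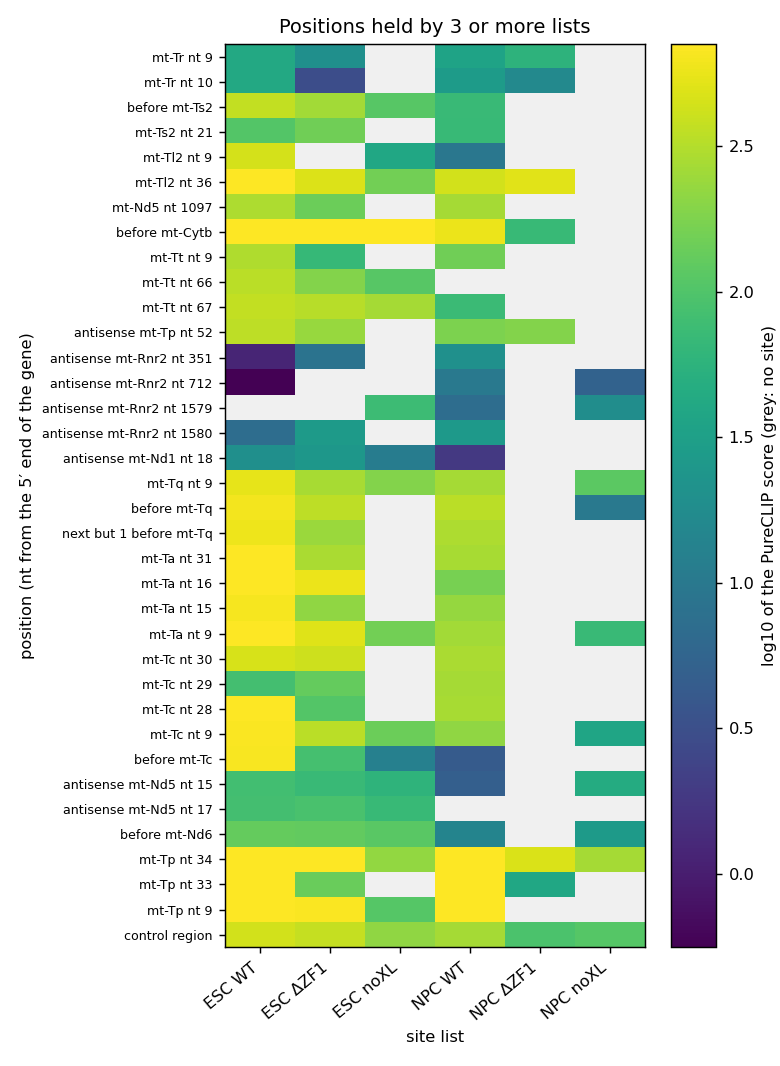
Scores at the 36 mitochondrial positions held by 3 or more lists, with 1 position per row, named by gene and nucleotide from its 5′ end, 1 list per column, colour for the log10 of the PureCLIP score and grey for no site. Of the 12 rows for tRNA position 9 or a gene start, 9 are filled in the ESC noXL column and 5 in the NPC noXL column, while mt-Ta nt 15, 16 and 31 and mt-Tc nt 28 to 30 are filled in ESC WT, ESC ΔZF1 and NPC WT and grey in both noXL columns.

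The base under the site also differed with how many lists held a position. Any position in 5 or more lists is necessarily in a noXL list, so this series partly restates the contrast of WT and noXL lists above. Of the 259 positions in a single list, 51.0% were uridine, of the 29 in 2 lists 62.1%, of the 17 in 3 lists 29.4%, of the 10 in 4 lists 20.0%, of the 7 in 5 lists 14.3%, and of the 2 in all lists 0%. Both WT lists shared 53 positions. Of these, 17 were also in a noXL list, and 3 of them (17.6%, 6.19 to 41.0) were uridine, while 10 lay at position 9 or before a gene start. The 36 in no noXL list had 21 uridines (58.3%, 42.2 to 72.9). When the NPC noXL list, whose plus-strand sites stood apart, was left out, the counts were 1 uridine of 15 in ESC noXL (6.67%, 1.19 to 29.8) and 23 of 38 outside it (60.5%, 44.7 to 74.4).

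The ΔZF1 lists divided the 36 further. Of the 16 also held by a ΔZF1 list, 5 were uridine (31.2%, 14.2 to 55.6) and 11 lay in tRNAs. Of the 20 held by neither ΔZF1 list, 16 were uridine (80%, 58.4 to 91.9), with 7 in mRNAs, 7 antisense and 5 in tRNAs. At the 53 shared positions the scores of ESC WT and NPC WT ranked alike, with a Spearman rho of 0.736 over positions, which share a genome and its base composition and are not replicates.

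Sharing between lists was read against the share of nucleotides of the same genes that lay as near to a site of the other list. Within 5 nt, 63.9% of the 72 ESC ΔZF1 sites (52.4 to 74.0) had an ESC WT site on the same strand, against 18.9% of such nucleotides. For NPC ΔZF1 near NPC WT it was 69.2% of 13 sites (42.4 to 87.3) against 17.5%. ESC noXL sites had an ESC WT site in 49.1% (36.1 to 62.1) against 16.1%, and NPC noXL sites an NPC WT site in 43.5% (25.6 to 63.2) against 10.8%. In the other direction, 32.7% of ESC WT sites lay near an ESC ΔZF1 site and 18.7% near an ESC noXL site, with 9.15% and 6.36% of nucleotides. Between cell types, 55.3% of the NPC WT sites were matched by ESC WT (46.5 to 63.8), against 15.8%, and 39.8% of the ESC WT sites by NPC WT, against 11.6%.

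Mitochondrial sites of the UV lists had neighbours more often than nuclear ones. The number of sites per nucleotide also differs between mitochondrial and nuclear sequence, and it was not taken into account here. A site with no other within 8 nt on its strand made up 55.0% of mitochondrial against 65.4% of nuclear sites in ESC WT and 69.4% against 79.1% in ESC ΔZF1. For NPCs it was 53.7% against 71.6% with WT and 69.2% against 89.6% with ΔZF1. In the noXL lists the shares were 88.7% against 89.3% for ESCs and 91.3% against 92.7% for NPCs.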

How the data were processed

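Values were taken from 6 site lists, 1 per group, that pooled 23 iCLIP2 libraries grouped by their sample labels. Before deposit, the authors had used Flexbar to split and trim the reads, STAR for alignment to the mm10 genome, and UMI-tools to discard PCR copies. Libraries of a group were then merged, and PureCLIP called single crosslinked nucleotides on the merged reads; versions are not given in the sources used here. The deposited score of each site is the one PureCLIP gave, not scaled to depth. How reads with several matches were placed decides what is seen where nuclear copies exist, and was not examined here.

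Sites with chrM in the first column were placed by strand on the 37 mitochondrial genes of GENCODE release M21 on GRCm38, the same build as mm10, with 1-based positions and a genome length of 16299. Overlaps were settled in the order rRNA, mRNA, tRNA, and sense before antisense. The control region began at 15423. The base was read from the reference on the strand of the site, with T given as uridine. A nuclear copy is an exact match elsewhere in the genome of the 50 nt that a read starting next to the site would cover.

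Genes with at least 5 sites over the 6 lists, positions held by 3 or more lists and positions with the highest scores were named; because of ties, all 14 at the ceiling were taken. The members and lists were chosen with earlier results of these data known. Position 9 of tRNAs, the windows at tRNA positions 15 to 21 and 28 to 36, and gene starts were chosen after the positions were seen. No test between groups was possible. Alternatives changed the score minimum, merging, sharing distance, nuclear copies, RNA class and removal of UV sites within 5 nt of any site in the matching noXL list. The functions were tested on simulated data. Python 3.11.15, numpy 2.4.6, pandas 2.3.3, scipy 1.17.1 and matplotlib 3.10.9 were used.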

Additional observations from a re-analysis of the deposited data

How the results depend on the processing

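A share was taken to have moved when it left the counting interval of its first value, and a count of sites when it changed by over 1.5 times; 18 of 107 recomputed values did so. With a score minimum of 3.02, the median of all lists, the mitochondrial share of the list rose from 0.0378% to 0.0578% for WT and from 0.0310% to 0.0480% for ΔZF1 in ESCs and from 0.0513% to 0.0823% for WT in NPCs, whereas ESC noXL went from 0.0333% to 0.0337% and its interval no longer overlapped that of WT. The count in ESC noXL became 34. For mRNA sites alone the uridine share was 88.9% for WT and 100% for ΔZF1 (1 site) in ESCs and 93.8% for WT in NPCs; rRNA alone could not be given because no list had a sense rRNA site. Removing UV sites within 5 nt of any site in the matching noXL list left 44 sites in ESC ΔZF1, 43.2% of them uridine. At a distance of 0 nt, the shares near another list were 50% for ESC ΔZF1 near ESC WT, 11.1% for ESC WT near ESC noXL, 8.13% for NPC WT near NPC noXL and 43.1% for NPC WT near ESC WT. At 50 nt these were 84.7%, 43.9%, 26.8% and 82.9%, and NPC ΔZF1 near NPC WT was 92.3%. Merging neighbouring sites lowered the counts from 171 to 127 in ESC WT and from 123 to 91 in NPC WT, and the score minimum lowered them to 117 and 86, all by less than 1.5 times. Leaving out sites with nuclear copies lowered them to 158 and 116. No paired analysis was possible because sites were called on merged libraries, which also meant that none could be left out in turn. Depth is unknown, and the 13 sites of NPC ΔZF1 and 23 of NPC noXL give wide intervals for every share.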
